A study of Xenopus laevis with 6 samples.

Results

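LIM homeobox genes encode transcription factors with a pair of LIM domains, which bind other proteins, and a homeodomain, which binds DNA. Their LIM domains bind the cofactors Ldb1 and Ldb2, and LIM-only (Lmo) proteins compete for the same cofactors. In mouse and chick limb buds, Lhx2 and Lhx9 act in the mesenchyme under the apical ridge during outgrowth, Lmx1b gives the limb its dorsal identity, and Isl1 acts in the starting hind limb field. Isl1, Lhx5 and Lhx8 are also known as factors of particular neurons.

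The members were the gene IDs whose symbol in the authors' deposited table of differential genes was an lhx, lmx1a, lmx1b, isl1 or isl2 name followed directly by the copy letter L or S. X. laevis is allotetraploid, and L and S mark the copies of a gene on its long and short subgenomes. The rule found 9 gene IDs of 51061 in the count table, for 8 symbols of 5 genes: lhx2.L, lhx2.S, lhx9.L, lhx9.S, isl1.L, isl1.S under 2 gene IDs, lhx8.L and lhx5.S. That table lists only genes the authors called in at least 1 comparison, so each member is there because it differed somewhere in these libraries, and how many members are called is a description, not support. The RefSeq table for assembly Xenopus_laevis_v10.1 holds 22 records of this family, of which 9 are named in the authors' deposited table. The others, among them lhx1, lhx3, lhx6, isl2 and lmx1a, were not analysed here.

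All samples were wild type X. laevis (African clawed frog) tadpoles at stage 51, untreated, whose hind limb buds were cut into a proximal, a medial and a distal segment. Each segment was sampled as 2 biological pools of 30 hind limbs, so every library averages many animals and all cell types of a segment. Libraries held 10815041 to 35479915 fragments assigned to genes, and 3 counts, taken as a detection floor, equalled 0.084 to 0.283 CPM, the unit of level used here, scaled by each library's TMM-adjusted size. A gene is called where edgeR's quasi-likelihood test over 27007 genes gave p below 0.05 after Benjamini-Hochberg adjustment. Of 8 limb mesenchyme markers named in the authors' deposited table, present as 15 gene IDs, the summed level was 1769 and 1779 CPM in the proximal pools, 1703 and 1852 in the medial pools and 1249 and 1214 in the distal pools. The list mixes gene IDs that were called higher (5) and lower (8) in distal than in proximal, where 29.5% of all genes were called. meis2.L alone went from 240.5 and 260.3 CPM in proximal to 26.9 and 30.9 in distal, while fgf10.S went from 4.53 and 2.49 to 27.6 and 28.8. Among the 8 lower were prrx1.L, prrx1.S, twist1.L and twist1.S, at −0.64, −0.39, −1.02 and −0.86 on the log2 scale. They were named after their values were seen. With gene IDs going both ways, the sum is no measure of the amount of mesenchyme. In bulk libraries, fewer cells of a type and less RNA per cell cannot be told apart, which holds for each difference below.

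The members differed in how they changed along the limb bud. Both lhx2 copies were low in the proximal and medial segments and high in the distal segment. lhx8.L was also higher in distal than in the other segments, but scarce throughout, at 3.05 and 4.12 CPM in distal. Both lhx9 copies rose at each boundary, and isl1.L and isl1.S on chromosomes 1L and 1S fell at each. The isl1.S fragment and lhx5.S were lower in distal than in proximal, with an outer step that was not called for the fragment and neither step called for lhx5.S. The counts that follow are of gene IDs and hold isl1.S under both of its IDs. Between distal and proximal all 9 members were called, 5 higher and 4 lower in distal, where 29.5% of all genes tested were called. Between distal and medial 7 were called (25.0% of all genes) and between medial and proximal 6 (7.60% of all genes). The median log2 fold change of the members from proximal to distal was 1.43, but the members lie on both sides of 0. Over all genes tested it was −0.0033, with which members taken from called genes cannot be compared.

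**Figure D1:**
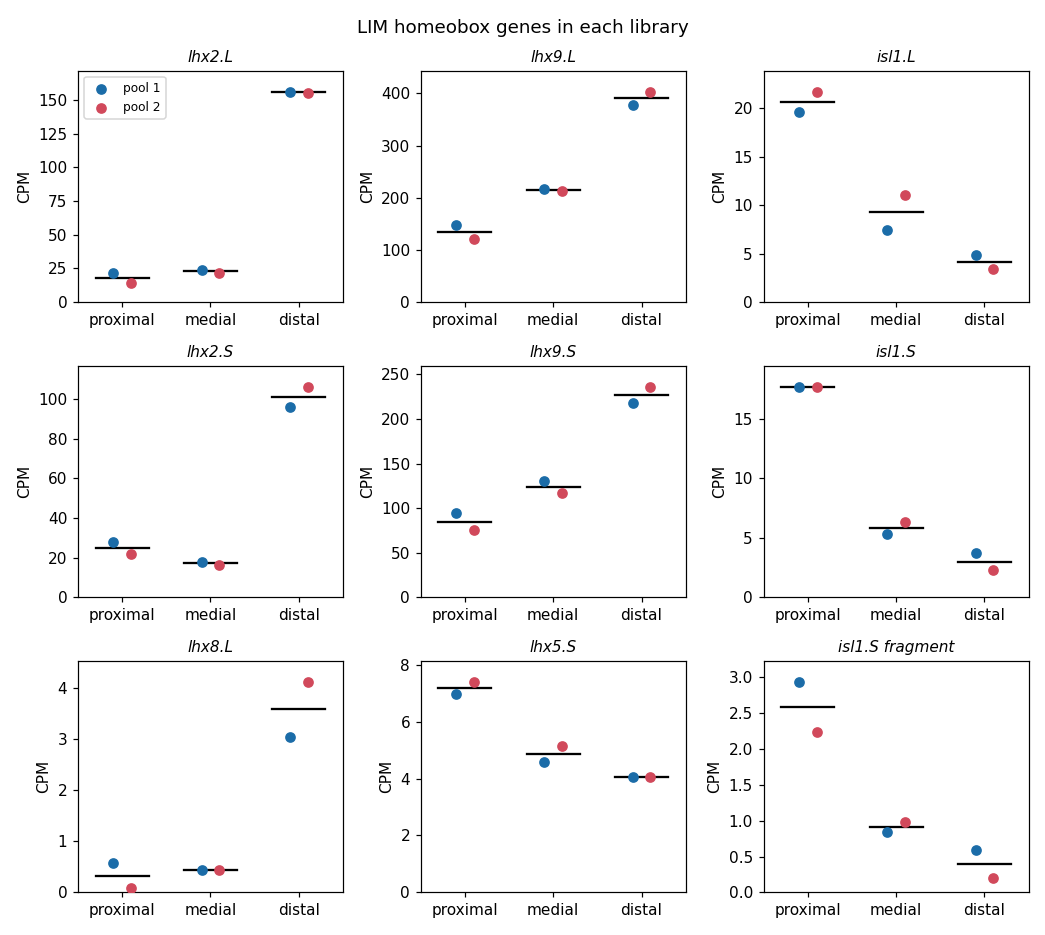
CPM (y axis, from 0) of the 9 LIM homeobox gene IDs in each library, by segment (x axis), with pool 1 in blue, pool 2 in red and the mean of the pools as a bar. The distal pools lie above all other libraries for lhx2, lhx9 and lhx8.L and below all others for isl1 and lhx5.S.

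lhx9 was the most abundant member. The copy lhx9.S (gene16678, chromosome 4S, 84083788 to 84117880, plus strand, build not stated in the sources used here) stood at 94.5 and 75.2 CPM in the proximal pools, 131 and 117 in the medial pools and 218 and 236 in the distal pools. The 3 segments did not overlap, and the level was higher in each more distal one. lhx9.S rose 2.69-fold over the whole bud, a log2 fold change of 1.43 with an SE of 0.12 (edgeR adjusted p = 4.85e-06). From proximal to medial its log2 fold change was 0.56 (SE 0.12, edgeR adjusted p = 0.0129), and from medial to distal 0.87 (SE 0.12, edgeR adjusted p = 0.000253). The call between medial and proximal was lost without proximal pool 2, the deeper of that segment (edgeR adjusted p = 0.109, log2 fold change 0.41).

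The copy lhx9.L (gene37111, chromosome 4L, 102619702 to 102648207) was at 148 and 120.0 CPM in proximal, 216 and 212 in medial and 378 and 403 in distal. It followed the same staircase, again with no overlap between segments. Its log2 fold changes were 1.55 from proximal to distal (SE 0.11, edgeR adjusted p = 1.83e-06), 0.68 from proximal to medial (SE 0.11, edgeR adjusted p = 0.00305) and 0.87 from medial to distal (SE 0.11, edgeR adjusted p = 0.00019). In both copies proximal pool 1 was above proximal pool 2, a gap within the segment that was smaller than the distance to the medial pools.

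Per kilobase of the counting length, lhx9.L ranked 550 of 27007 genes in distal, at 105 ± 4.67 CPM per kb (SD, n = 2), and lhx9.S ranked 1663, at 35.7 ± 1.93. In proximal the ranks were 1628 and 4896. The lower per-length level of lhx9.S goes with a longer annotated transcript set, 6354 bases against 3714, so the ratio between copies depends on the annotation. Exons of lhx9.S share 267 bases, 4.2% of their length, with an unnamed gene on the other strand. Fragments in that stretch were counted for neither gene, and the partner held 4 to 31 counts per library, against 1000 to 5230 for lhx9.S.

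lhx2 differed from lhx9 in where it changed. lhx2.L (gene17540, chromosome 8L, 9364893 to 9400734) was at 21.6 and 14.2 CPM in proximal, 24.0 and 21.4 in medial and 156 and 155 in distal. The proximal and medial pools overlapped, and the distal pools stood far above both. Its log2 fold change was 2.77 from medial to distal (SE 0.16, edgeR adjusted p = 4.25e-06) and 3.17 from proximal to distal (SE 0.17, edgeR adjusted p = 1.6e-06), a 9.02-fold rise. From proximal to medial it was 0.40 (SE 0.17, edgeR adjusted p = 0.261). Over 13 other settings this inner step ran from 0.09 to 0.68, the latter without proximal pool 1, and it was called in 2 of them.

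lhx2.S (gene12899, chromosome 8S, 41340622 to 41369195) was at 27.7 and 22.0 CPM in proximal, 18.0 and 16.5 in medial and 95.8 and 106 in distal. Here medial was the lowest segment and did not overlap with proximal. The rise over the outer boundary was 5.84-fold (log2 value 2.55, SE 0.12, edgeR adjusted p = 1.48e-07), and over the whole bud 4.13-fold (log2 value 2.05, SE 0.12, edgeR adjusted p = 3.22e-07). From proximal to medial lhx2.S fell by 0.50 on the log2 scale (SE 0.12, edgeR adjusted p = 0.0304). That last call held in 8 of 13 other settings, with adjusted p-values from 0.000416 to 0.168. It was lost without proximal pool 1 (edgeR adjusted p = 0.168), medial pool 2 (0.0923), distal pool 1 (0.0579) or distal pool 2 (0.0589). It was also lost when edgeR was given only the 4 libraries compared (adjusted p = 0.0615).

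The signed outer log2 step minus the signed inner log2 step was tested as a contrast, chosen after the levels had been seen. It does not compare the sizes of the steps where a gene falls. Only the lhx2 copies among the members were called, while 9.73% of all genes were. The outer step exceeded the inner step by 3.04 for lhx2.S (SE 0.22, edgeR adjusted p = 6.15e-06) and by 2.37 for lhx2.L (SE 0.29, edgeR adjusted p = 0.000934) on the log2 scale. The value of lhx2.S includes its inner fall of 0.50. For lhx9.L the difference was 0.19 (SE 0.19, edgeR adjusted p = 0.627) and for lhx9.S 0.31 (SE 0.20, edgeR adjusted p = 0.41). For isl1.L it was 0.04 (SE 0.37, edgeR adjusted p = 0.965) and for isl1.S 0.69 (SE 0.33, edgeR adjusted p = 0.241). The positive value of isl1.S goes with a smaller fall across the outer boundary (−0.91) than across the inner (−1.60). For lhx8.L the difference was 1.92, with an SE of 1.04 that leaves the size unsettled (edgeR adjusted p = 0.309).

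**Figure D2:**
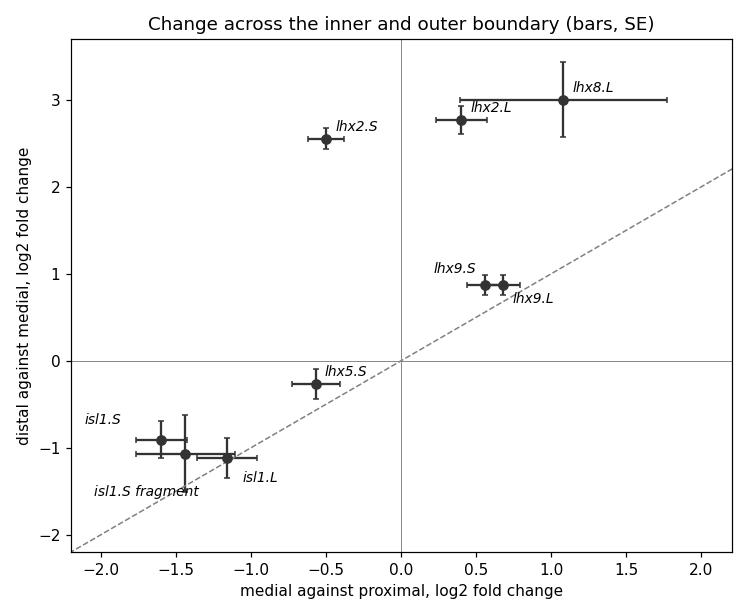
Log2 fold change across the outer boundary (distal against medial, y axis) against that across the inner boundary (medial against proximal, x axis) for each LIM homeobox gene ID, with bars for SE and a dashed line where both steps are equal. The lhx9 and isl1.L points lie by the line, whereas lhx2.L (0.40, 2.77) and lhx2.S (−0.50, 2.55) lie far above it.

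With L and S copies added, the relation between lhx2 and lhx9 changed along the bud. Per kilobase, lhx9 exceeded lhx2 by 4.27-fold and 4.71-fold in the proximal pools, 7.11-fold and 7.53-fold in the medial pools and 2.04-fold and 2.11-fold in the distal pools. The segments did not overlap in this ratio. lhx2 thus made up 32.9% and 32.1% of the summed lhx2 and lhx9 level in distal, against 11.7% and 12.3% in medial and 17.5% and 19.0% in proximal. These shares are levels per length within a library and were given no test.

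**Figure D3:**
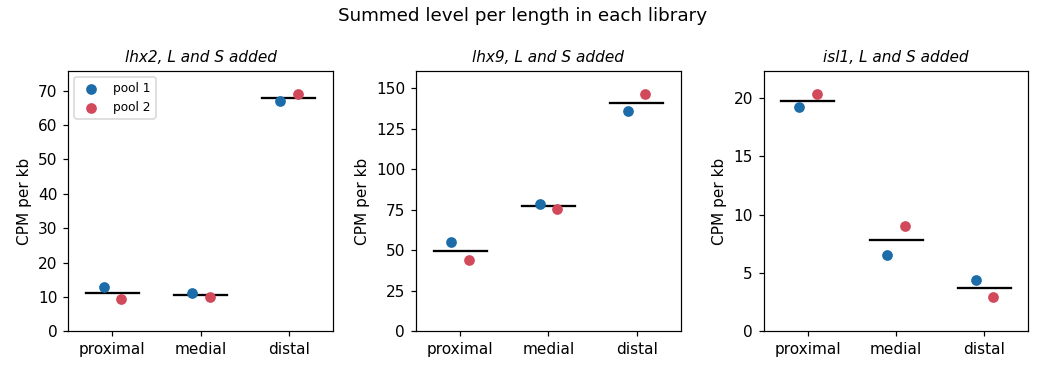
Summed level of the L and S copies per kilobase of counting length (CPM per kb, y axis from 0) of lhx2, lhx9 and isl1 in each library by segment, with pools in blue and red and bars for means. lhx2 is at 66.9 and 68.9 CPM per kb in distal against 9.37 to 12.9 elsewhere, lhx9 climbs in steps to 136 and 146, and isl1 descends from 19.2 and 20.3 to 4.43 and 2.96.

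The L and S copies of lhx2 did not keep a fixed balance. The ratio of lhx2.L to lhx2.S counts was 0.782 and 0.646 in the proximal pools, 1.33 and 1.3 in the medial pools and 1.63 and 1.46 in the distal pools. S was thus the larger copy in proximal and L in the outer segments. A limma fit of the log2 ratio over 1207 named L and S pairs called lhx2 for any difference among segments (adjusted p = 6.9e-05). In that fit 53.4% of pairs were called, so a shifting balance was common among pairs with both copies in the authors' deposited table. The log2 ratio of lhx2 was higher by 1.12 in distal than in proximal (SE 0.12, limma adjusted p = 3.79e-05) and by 0.89 in medial than in proximal (SE 0.12, limma adjusted p = 0.00054). Between distal and medial it differed by 0.23 (SE 0.12, limma adjusted p = 0.148).

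For lhx9 the ratio of L to S counts was 1.57 and 1.59 in proximal, 1.65 and 1.80 in medial and 1.73 and 1.71 in distal. No difference among segments was called (limma adjusted p = 0.195), and the distal to proximal difference was 0.12 on the log2 scale with an SE of 0.06. For isl1 the ratio was 1.11 and 1.23 in proximal, 1.38 and 1.76 in medial and 1.31 and 1.49 in distal (limma adjusted p = 0.235), with a distal to proximal difference of 0.26 (SE 0.20). Fragments from stretches identical in both copies map to several places and were not counted, so these ratios rest on the stretches where the copies differ.

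**Figure D4:**
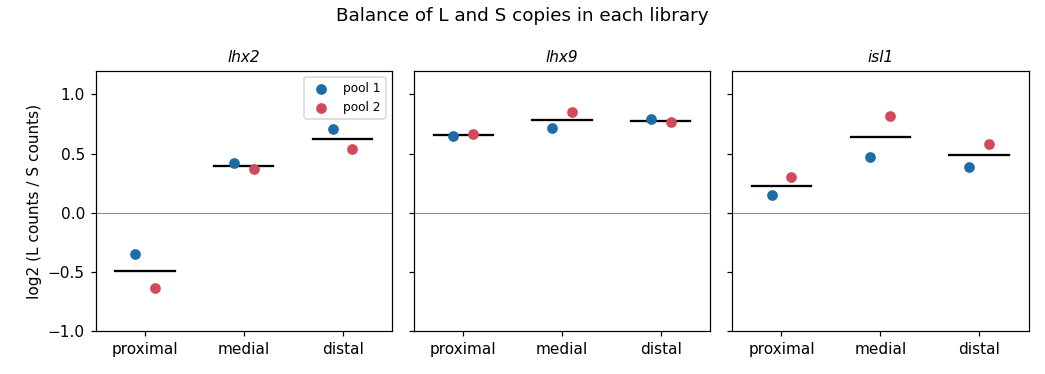
Log2 ratio of L to S counts (y axis) for lhx2, lhx9 and isl1 in each library by segment, with pools in blue and red, bars for means and a grey line where copies are equal. lhx2 crosses from −0.35 and −0.63 in proximal to 0.71 and 0.54 in distal, while lhx9 stays between 0.65 and 0.85 and isl1 between 0.15 and 0.82.

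isl1 ran the other way. isl1.L (gene44984, chromosome 1L, 197481012 to 197491568) was at 19.6 and 21.7 CPM in proximal, 7.41 and 11.1 in medial and 4.88 and 3.44 in distal. Segments did not overlap, although the medial pools differed by more than the distal ones. It fell 4.88-fold over the whole bud (log2 value −2.29, SE 0.22, edgeR adjusted p = 3.9e-05), with steps of −1.16 from proximal to medial (SE 0.20, edgeR adjusted p = 0.00507) and −1.12 from medial to distal (SE 0.23, edgeR adjusted p = 0.00544). The inner step lost its call without proximal pool 2 (−1.07, edgeR adjusted p = 0.0919).

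isl1.S (gene35422, chromosome 1S, 162221972 to 162232197) was at 17.7 CPM in both proximal pools, 5.36 and 6.31 in medial and 3.71 and 2.30 in distal. It fell 5.68-fold over the whole bud (log2 value −2.51, SE 0.20, edgeR adjusted p = 2.8e-06). Its inner step was −1.60 (SE 0.17, edgeR adjusted p = 0.000162) and its outer step −0.91 (SE 0.21, edgeR adjusted p = 0.00769). The outer step lost its call without distal pool 2 (−0.66, edgeR adjusted p = 0.063).

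A further gene ID with the symbol isl1.S, gene35304, is a single stretch of 290 bases on Scaffold17931 (422 to 711) that carries the same Entrez identifier. Its level per kilobase was close to that of isl1.S on chromosome 1S in every segment: 8.91 ± 1.68 against 8.82 ± 0.00231 CPM per kb in proximal, 3.14 ± 0.332 against 2.91 ± 0.339 in medial and 1.36 ± 0.93 against 1.5 ± 0.5 in distal (SD, n = 2). Its counts were 31 and 80 in proximal, 23 and 27 in medial and 14 and 3 in distal. Summed over pools it was 5.47-fold lower in distal than in proximal (exact 95% interval 3.27 to 9.72, counting error only; log2 fold change −2.52, edgeR adjusted p = 0.000636). It was also called between medial and proximal (−1.44, edgeR adjusted p = 0.0202), but not by DESeq2 (adjusted p = 0.119), without proximal pool 1 (edgeR adjusted p = 0.098) or without proximal pool 2 (edgeR adjusted p = 0.087). RefSeq gives that identifier on chromosome 1S, so the fragment was not read as an independent gene.

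Isl1 also marks motor and sensory neurons. Only 5 of 22 neuron markers are named in the authors' deposited table, as 7 gene IDs. That table holds called genes only, so counts called among the marker lists describe them and support nothing. Of the 7, 3 were lower and 2 higher in distal than in proximal, where 29.5% of all genes were called, with a median log2 fold change of −0.40. The number lower became 2 when either distal pool was left out, and the number higher became 1 when any distal or proximal pool was. Their summed level was 221 and 223 CPM in the proximal pools, 253 and 219 in medial and 167 in both distal pools, and none was at 0. Most of that sum came from ncam1.L and ncam1.S, named after their values were seen. They stood at 74.5 and 99.1 CPM in proximal pool 1 and at 48.7 and 71.0 CPM in distal pool 1. The sum thus mainly follows ncam1. Another of the 7, gap43.S, a growth cone protein gene, fell in step with isl1, from 9.45 and 9.88 CPM through 3.56 and 4.03 to 2.00 and 2.16 (log2 fold change −2.23, edgeR adjusted p = 4.9e-06). By contrast syt1.L, a synaptic vesicle protein gene, and tubb2b.S, a tubulin gene, had log2 fold changes of 1.04 and 1.54 (edgeR adjusted p = 0.0406 and 0.00114). tubb2b.S was scarce, at 1.42 and 1.34 CPM in proximal. The other copy, tubb2b.L, named after its values were seen, was at 22.4 and 35.8 CPM in proximal and 20.8 and 17.8 in distal. Its log2 fold change of −0.62 was not called (edgeR adjusted p = 0.0526). The call of syt1.L was lost without distal pool 1 (edgeR adjusted p = 0.0956), distal pool 2 (0.159), proximal pool 1 (0.0826) or proximal pool 2 (0.296). The part of nerve in the isl1 profile was not tested.

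The remaining members were scarce or partial. lhx8.L (gene6484, chromosome 4L, 70555147 to 70565974), known in mouse from forebrain neurons and the mesenchyme of jaw and tooth, had 6 and 3 counts in proximal, 12 and 12 in medial and 73 and 61 in distal. That is 0.567 and 0.084 CPM, 0.440 and 0.435 CPM, and 3.05 and 4.12 CPM. The distal pools lay above all others, and proximal and medial overlapped. Over summed counts the distal level was 17.8-fold the proximal one (exact 95% interval 9.09 to 39.7, counting error only) and 7.89-fold the medial one (5.09 to 12.8). The log2 fold change from proximal to distal was 4.08 (SE 0.53, edgeR adjusted p = 0.000163). It became 2.63 without proximal pool 2 and 5.32 without proximal pool 1 (edgeR adjusted p = 0.005 and 6.57e-05), so its size is uncertain. From medial to distal it was 3.0 (SE 0.43, edgeR adjusted p = 0.000462).

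lhx5.S, known in mouse for forebrain and hippocampal development, is represented by 477 bases on Scaffold45827 (1 to 477), whereas RefSeq places the gene on chromosome 1S. It stood at 6.99 and 7.39 CPM in proximal, 4.59 and 5.15 in medial and 4.05 in both distal pools. It fell 1.78-fold over the whole bud (log2 value −0.84, SE 0.17, edgeR adjusted p = 0.0033). Neither step was called, with −0.57 from proximal to medial (SE 0.16, edgeR adjusted p = 0.0576) and −0.27 from medial to distal (SE 0.17, edgeR adjusted p = 0.292). Because only a short stretch was counted, whether these fragments come from a full lhx5 transcript was not tested.

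A further LIM homeobox gene in the authors' deposited table, lmx1b.1.L (gene38074, chromosome 8L, 11696412 to 11819175), falls outside the rule because its symbol carries a tandem copy number. It specifies dorsal limb identity in mouse and chick. It was at 86.1 and 86.6 CPM in proximal, 62.5 and 62.6 in medial and 51.6 and 48.8 in distal. Its log2 fold change from proximal to distal was −0.78 (SE 0.09, edgeR adjusted p = 4.5e-05), opposite in sign to lhx2 and lhx9. The inner step was −0.46 (edgeR adjusted p = 0.00577) and the outer step −0.32 (edgeR adjusted p = 0.0202). Another gene overlaps 23.6% of its exon length and fragments there were not counted.

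The order of levels per length differed between the ends of the bud. In proximal, lhx9.L and lmx1b.1.L stood highest at 36.1 ± 5.40 and 38.0 ± 0.137 CPM per kb (SD, n = 2), a difference within the spread of lhx9.L, followed by lhx5.S (15.1 ± 0.597), lhx9.S (13.4 ± 2.14), isl1.L (10.9 ± 0.767), isl1.S (8.82 ± 0.00231), lhx2.S (6.20 ± 1.01), lhx2.L (4.91 ± 1.45) and lhx8.L (0.0887 ± 0.093). lhx5.S and lhx9.S, and the lhx2 copies, differed by less than the spread of one of each pair. The level of lhx5.S rests on 477 bases of a scaffold, at 6.99 and 7.39 CPM in proximal against 94.5 and 75.2 for lhx9.S. Its place in either order is therefore uncertain. In distal the order was lhx9.L (105 ± 4.67), lhx2.L (42.7 ± 0.365), lhx9.S (35.7 ± 1.93), lhx2.S (25.2 ± 1.83), lmx1b.1.L (22.1 ± 0.885), lhx5.S (8.49 ± 0.008), isl1.L (2.2 ± 0.536), isl1.S (1.5 ± 0.5) and lhx8.L (0.976 ± 0.207). There the isl1 copies, and isl1.S with lhx8.L, lay about as far apart as their spread.

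LIM-binding cofactors and LIM-only genes were described from a list of 13 genes, 7 of which are named in the authors' deposited table, as 14 gene IDs. From proximal to distal 7 of the 14 rose and 6 fell, where 29.5% of all genes were called, and the list had been chosen with results of these data known. The cofactor genes themselves were lower in distal. ldb1.L was at 107 and 113 CPM in proximal, 110 and 129 in medial and 84.6 and 78.1 in distal (log2 fold change −0.44, edgeR adjusted p = 0.00715), and ldb1.S fell by 0.36 on the log2 scale (edgeR adjusted p = 0.0114). These small falls lost their call without distal pool 2 (edgeR adjusted p = 0.1 for ldb1.L and 0.154 for ldb1.S) and without proximal pool 2 (0.0555 and 0.0761), and that of ldb1.S also without distal pool 1 (0.0522). ldb2.L fell by 0.82 (edgeR adjusted p = 0.000662), while ldb2.S had a value of −0.41 that was not called (edgeR adjusted p = 0.146).

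Among LIM-only genes, which encode LIM domains without a homeodomain, the lmo4 copies rose distally like lhx2. lmo4.2.S was at 37.6 and 36.2 CPM in proximal, 32.9 and 29.1 in medial and 154 and 151 in distal, with the distal pools apart from the rest (log2 fold change 2.05, edgeR adjusted p = 6.33e-08). lmo4.2.L rose by 2.35 on chromosome 8L (edgeR adjusted p = 2.63e-08) and by 2.48 as a further gene ID on Scaffold61840 (edgeR adjusted p = 6.52e-06), and lmo4.1.L by 1.16 (edgeR adjusted p = 3.96e-06). From proximal to distal lmo1.L and lmo1.S rose by 1.06 and 0.67 (edgeR adjusted p = 0.00109 and 0.000472). However, lmo1.L was lowest in medial, at 3.97 and 3.47 CPM in proximal, 1.58 and 1.56 in medial and 7.8 and 7.43 in distal. lmo1.S was at 25.8 and 23.2, 29.0 and 32.3, and 38.2 and 39.2 CPM in these segments. lmo7.S, whose product joins LIM and other domains at cell junctions, rose by 1.31 (edgeR adjusted p = 0.00097), and csrp1.L, a cytoskeletal LIM protein gene, fell by 1.36 (edgeR adjusted p = 0.000988).

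lmo2, a LIM-only gene of blood and endothelial precursors, fell. lmo2.S went from 28.3 and 33.6 CPM in proximal through 44.0 and 59.0 in medial to 7.18 and 5.0 in distal (log2 fold change −2.33, edgeR adjusted p = 6.34e-05), and lmo2.L by 2.21 (edgeR adjusted p = 2.27e-05). Red blood cell markers moved with it: all 18 gene IDs of the 10 named genes, of 12 on the list, were lower in distal, where 29.5% of all genes were called. With a replicate block 16 of the 18 were called lower. The summed level of all 18 was 21116 and 29489 CPM in proximal, 39379.9 and 44579.9 in medial and 1784 and 877 in distal. Endothelial markers, 4 of 10 named as 6 gene IDs, summed to 89.1 to 93.4 CPM in proximal, 59.4 to 59.6 in medial and 69.5 to 70.2 in distal. Of the endothelial gene IDs, 5 were lower and 1 (egfl7.L, named after its value was seen) higher in distal, with pecam1.L at −1.11, cldn5.L at −1.13 and cdh5.S at −0.93 on the log2 scale (edgeR adjusted p = 2.23e-05, 0.000198 and 0.00126). egfl7.L went from 11.9 and 10.3 CPM in medial to 32.1 and 33.4 in distal. The higher endothelial sum in distal than in medial thus comes from egfl7.L alone. Among the globin genes, hba3.L was at 10712 and 15649 CPM in proximal and 917 and 461 in distal (edgeR adjusted p = 0.000229). The scarce globin genes hbg1.L and hba1.S were at 1.89 and 3.08 and at 0.378 and 0.924 CPM in proximal, and at or below 0.135 CPM in distal (edgeR adjusted p = 5.42e-05 and 0.00433), the call of hba1.S being lost without proximal pool 2 (0.127). The part of blood cells in the lmo2 values was not tested.

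**Figure D5:**
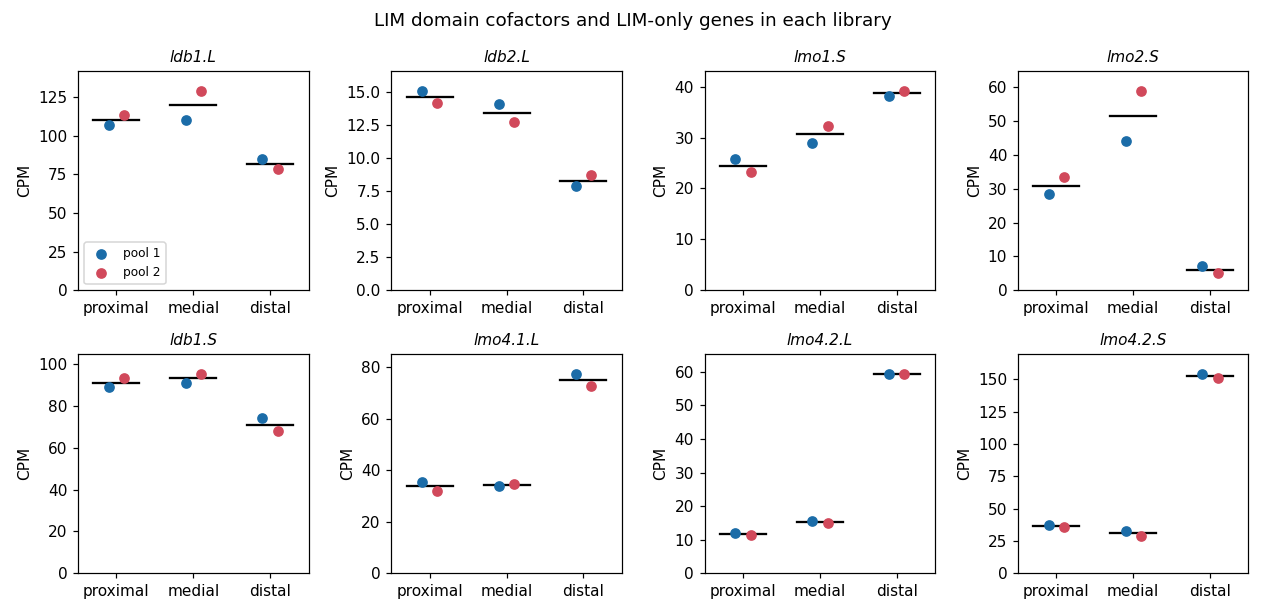
CPM (y axis, from 0) of LIM domain cofactor genes (ldb1, ldb2) and LIM-only genes (lmo1, lmo2, lmo4) in each library by segment, with pools in blue and red and bars for means. The lmo4 copies are highest in distal, with lmo4.2.S at 154 and 151 CPM, lmo2.S is lowest there at 7.18 and 5.0, and ldb1.L is at 84.6 and 78.1 in distal against 107 to 129 elsewhere.

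Genes tied to LIM homeobox factors in mouse and chick limb buds formed a further list of 22, of which 20 are named in the authors' deposited table as 32 gene IDs. Being in that table of called genes largely fixes how many are called, so the counts are a description. From proximal to distal 28 rose and 4 fell (29.5% of all genes were called), with a median log2 fold change of 1.88. The median over all genes was −0.0033, but a list kept from called genes cannot be compared with it. From medial to distal 25 rose and 3 fell (25.0% of all genes), and from proximal to medial 17 rose and 4 fell (7.60% of all genes), or 13 and 2 without proximal pool 2. The largest changes were those of hoxd13.L and hoxd13.S, digit region factors, at 5.75 and 5.11 (edgeR adjusted p = 6.34e-05 and 0.00448), and of wnt7a.S. wnt7a encodes the dorsal ectoderm signal that induces Lmx1b in mouse and chick. wnt7a.S was at 2.17 and 1.82 CPM in proximal, 0.147 and 0.0726 in medial and 0 in both distal pools (edgeR adjusted p = 5.18e-05). It fell, as did lmx1b.1.L, but its inner step was −4.09 against −0.46. alx4.L, alx4.S and pitx1.L, named after their values were seen, also fell, at −4.78, −4.39 and −0.62. fgf10.S, a mesenchymal outgrowth signal gene, is named from the mesenchyme list. From proximal to distal it rose, as did lhx2, lhx9 and most of these 32 gene IDs. fgf10.S was at 4.53 and 2.49 CPM in proximal and 27.6 and 28.8 in distal (log2 fold change 3.17, edgeR adjusted p = 4.85e-06). Its inner step was 1.49, and that of fgf10.L, named after its value was seen, was 0.70. At that boundary lhx2.S fell by 0.50, a call that held in 8 of 13 other settings. lhx2.L had a value of 0.40 there that was not called.

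The named genes whose profiles lay closest to each member were found by the root mean square difference of centred log2 CPM over the 6 libraries, among 5372 named genes. This is a description, and with 3 segments many genes lie close by. For lhx9.S they were st3gal2.2.L (0.063), kiaa1210.L (0.0683) and mettl24.L (0.0737), about as close as lhx9.L itself (0.0695). For lhx9.L they were hoxa3.L (0.0571), mettl24.L (0.0762) and hs3st6.L (0.0784). For lhx2.S they were noxo1.1.S (0.134), lmo4.2.S (0.153) and tcaf1.L (0.207), all far closer than lhx2.L (0.49). For lhx2.L they were arsj.L (0.117), sorcs1.S (0.128) and ncmap.L (0.174).

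For isl1.S the closest were jchain.L (0.105), c1s.L (0.121) and sema3fl.L (0.144), and isl1.L lay at 0.208. For isl1.L they were pappa2.L (0.18), sfrp1.L (0.191) and dipk1c.L (0.194). For the isl1.S fragment they were clec19a.L (0.154), dusp8.L (0.168) and mymk.L (0.191). For lhx8.L the closest were zic5.S (0.328), hes6.2.L (0.342) and tfap2e.L (0.382), with only 3 to 12 counts of lhx8.L in each proximal and medial pool. For lhx5.S they were adam33.L (0.0229), pik3r1.L (0.0433) and limd2.L (0.0442). Such distances grow with counting noise and with the size of the change, so they cannot be compared between members.

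Between distal and proximal the authors' deposited table lists all 9 members. It lists 7 between distal and medial, and 5 between medial and proximal. With signs turned so that positive means higher in the more distal segment, the authors' deposited table gives log2 fold changes from proximal to distal of 1.43 for lhx9.S, 1.55 for lhx9.L, 3.16 for lhx2.L, 2.05 for lhx2.S and 3.91 for lhx8.L. In the authors' deposited table isl1.L is at −2.29, isl1.S at −2.52, the isl1.S fragment at −2.61 and lhx5.S at −0.83.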

How the data were processed

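RNA sequencing libraries were made from 1 ug of total RNA per pool with an Illumina TruSeq kit, per the labels' protocols. Counts are the authors' deposited raw fragment counts per gene made with featureCounts 2.0.1, per the file headers, which show the paired-end switch and otherwise defaults (no strand, fragments in several places or genes left out). Trimmomatic 0.39, HISAT2 2.2.1, SAMtools 1.10 and DESeq2 1.30.1 are named in the submitters' processing notes, and the genome build is not given in the sources used here. Gene lengths are other values, in bases, deposited with the counts. The authors' deposited table of log2 fold changes and adjusted p-values holds only called genes and gives the only gene names (6943 gene IDs).

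Counts were filtered with filterByExpr (minimum 10, total 15; 27007 of 51061 gene IDs kept, all members among them), TMM-scaled and tested with edgeR 4.0.16 (R 4.3.3; robust quasi-likelihood, segment only, 6 libraries, 3 residual degrees of freedom). SE is the absolute log2 fold change over the square root of F. L to S ratios, log2 of counts plus 0.5, were fitted with limma 3.58.1 (trend, robust) over pairs with both copies named and kept. Both fits were run on simulated data with the same dispersion for every gene. Real pools need not vary so evenly, so that run does not settle how reliable the calls are. Replicate pools differed by more than sampling noise (chi-square per degree of freedom 3.03 to 13.3). Other settings were RLE factors, no filter, at least 10 counts in every library, a replicate block, DESeq2 1.42.0, limma-voom, only the 4 libraries compared and each pool left out. Named are all members, all cofactor genes and the 3 nearest genes per member. From each other list came the 3 called genes of largest change from proximal to distal, with at least 1 CPM. Both same-numbered pairs of pools had to change in the same direction. The genes tfap2b.L, tfap2b.S, egfl7.L, ncam1.L, ncam1.S, alx4.L, alx4.S, pitx1.L and lbx1.L were added after their values were seen. So were tubb2b.L, prrx1.L, prrx1.S, twist1.L, twist1.S, fgf10.L, tp63.L and tp63.S. A list symbol followed by a tandem number counted as a match. The members and lists were chosen with earlier results of these data known. No sequences were used here. Intervals cover counting error only.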

Additional observations from a re-analysis of the deposited data

How the results depend on the processing

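Over the 13 other settings every member kept its direction and its call between distal and proximal wherever it was tested. Both lhx2 copies, both lhx9 copies, lhx8.L and isl1.L also did so between distal and medial. One value changed sign: that of lhx8.L between medial and proximal, not called, was −0.35 without proximal pool 2 and 2.32 without proximal pool 1. Leaving out each pool in turn, 3 to 6 members were called between medial and proximal (6 with all pools, 3 without proximal pool 2), 6 to 7 between distal and medial and 9 throughout between distal and proximal. Over all genes the same settings called 4598 (without distal pool 1) to 9378 genes between distal and proximal, 3188 (without distal pool 1) to 6713 between distal and medial and 996 (without proximal pool 2) to 2617 between medial and proximal. With all pools these were 7975, 6753 and 2053. The share of calls higher in medial than in proximal was 35.8%, and 46.1% without medial pool 2. Same-numbered pools of different segments correlated at 0.03, 0.05 and 0.20 in their deviations. The library titles share the word Black for pool 1 and Red for pool 2 in every segment. The main fit did not pair the pools, but these correlations cannot exclude that they are paired. With a replicate block 9, 7 and 7 members were called in the 3 comparisons, lhx5.S joining between medial and proximal (adjusted p = 0.0438). The lhx2 ratio kept its call in all 9 alternatives. When a pool is left out, the lone pool is assumed to vary like the others.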

Other observations

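Markers of other cell types differed among segments beside the LIM homeobox genes. Their lists hold only gene IDs from the authors' deposited table of called genes, so the counts below are a description, to be read beside the 29.5% of all genes called between distal and proximal. Epidermal markers, 6 of 10 named as 12 gene IDs, were higher in distal than in proximal for 10 gene IDs and lower for none. The 10 became 4 without proximal pool 2, 5 without distal pool 1, 6 without distal pool 2 and 6 without proximal pool 1. The summed level of the 12 was 331 and 293 CPM in proximal, 436 and 287 in medial and 647 and 679 in distal. Of them tfap2a.S (log2 fold change 2.43), krt8.1.L (2.37) and grhl3.S (2.33) changed most (edgeR adjusted p = 2.4e-07, 8.5e-05 and 1.92e-05). Not called were tp63.L and tp63.S, named after their values were seen, at 0.32 and 0.45 (edgeR adjusted p = 0.461 and 0.176). Muscle progenitor markers, 6 of 8 named as 11 gene IDs, were lower in distal for 10 and higher for none, and pax7.L, myog.L and myog.S were at 0 in both distal pools. Their summed level was 63.4 and 63.0 CPM in proximal, 52.7 and 53.4 in medial and 27.7 and 23.2 in distal. lbx1.L, named after its values were seen, was at 16.7 and 15.5 CPM in proximal and 14.4 and 11.3 in distal, a difference not called (edgeR adjusted p = 0.124).

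Schwann cell and neural crest markers, 5 of 9 named as 9 gene IDs, were lower in distal for 7 and higher for 2. sox10.L fell from 6.14 and 7.56 CPM in proximal to 0.125 and 0.270 in distal (edgeR adjusted p = 2.52e-06), sox10.S from 11 and 10.9 to 0.501 and 0.540 (3.38e-06) and foxd3.S on chromosome 4S from 2.17 and 2.10 to 0.0834 and 0 (0.000123). The 2 called higher, tfap2b.L and tfap2b.S, chosen here after their values were seen, are also known from limb ectoderm and mesenchyme, and reached 177 and 180 CPM and 120.2 and 125 CPM in distal (edgeR adjusted p = 0.0284 and 0.00404). The call of tfap2b.L was lost without distal pool 1 (0.126), distal pool 2 (0.125), proximal pool 1 (0.103) or proximal pool 2 (0.171) and with a replicate block (0.0534), and that of tfap2b.S without proximal pool 2 (0.067). Limb mesenchyme markers rose for 5 and fell for 8 of 15 gene IDs from proximal to distal. meis2.S fell from 87.6 and 96.5 to 0.0834 and 0.203 CPM and meis2.L from 240.5 and 260.3 to 26.9 and 30.9 (edgeR adjusted p = 1.39e-08 and 5.61e-09). In contrast, fgf10.S of the same list rose from 4.53 and 2.49 to 27.6 and 28.8 CPM (edgeR adjusted p = 4.85e-06). The part of any of these cell types in the lhx2, lhx9 and isl1 profiles was not tested.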
